A study of Mus musculus with 6 samples.

Results

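The transcripts described here encode the trans-acting factors of pre-mRNA splicing: the SR proteins with their Tra2 relatives, the heterogeneous nuclear ribonucleoproteins (hnRNPs), the SF3a, SF3b and U2AF proteins of branch point and 3′ splice site recognition, and the PRPF proteins of the spliceosome. Members were chosen by gene symbol (Srsf, Tra2, Hnrnp, Sf3a, Sf3b, U2af and Prpf followed by a number or letter, pseudogenes left out). The rule itself uses no measured value. Of the 55401 genes in the RNA-seq table, 57 matched, and 55 of these were among the 16773 genes that had an adjusted p. The remaining 2, Srsf1 and Srsf12, had very low mean counts and a deposited p but no adjusted p; they are left out of the counts of tested members.

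The cells were immortalized mouse embryo fibroblasts (iMEF) from Ash2l fl/fl Cre-ER cells. An exon of endogenous Ash2l had been deleted, and a lentivirus supplied human ASH2L with an N-terminal FKBP12F36V tag and HA epitopes (FKBP-HA2-ASH2L). ASH2L belongs to the shared core of KMT2 methyltransferase complexes, which methylate histone H3 at lysine K4 near promoters. The compound dTAG-13 links the tag to the Cereblon ubiquitin ligase and so leads to degradation of the fusion protein. Cells titled as treated with dTAG for 24 h were compared with cells without dTAG, with 3 libraries per group by the labels. The treatment label names other times. Both groups are given the same tagged construct, although the untreated libraries are titled WT. The tagged cells were clonal, and no dTAG-treated cells without the tag are among the 6 libraries, so loss of ASH2L and other effects of the compound cannot be told apart. The labels do not say whether the libraries of a group came from separate cultures, so the p-values may measure only technical spread.

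All values below are the deposited ones of this comparison: the mean normalized read count over both groups, and the shrunken log2 fold change of treated over untreated cells with its standard error (SE). A negative value means a lower level after dTAG. A gene is called lower or higher where its Benjamini-Hochberg adjusted p, over all genes tested by the authors with DESeq2, was under 0.05. No values per library were in the table, so the depth of each library, the spread within a group and any overlap between groups are not given. Counts had been scaled to ERCC spike-in RNA, which had been added by cell number. In such bulk samples a change in every cell and a larger change in a part of the cells cannot be told apart.

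Splicing joins exons after the U1 particle has bound the 5′ splice site and U2AF and the U2 particle the 3′ splice site and branch point. SR proteins bind mainly exonic enhancers through RNA recognition motifs and recruit splicing components through domains rich in arginine and serine, whereas many hnRNPs coat nascent RNA and often act as silencers, so the balance of both groups sets the use of alternative exons. Many genes of both families regulate their own level by including a poison exon or retaining an intron, which exposes the transcript to nonsense-mediated decay.

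The promoters of the 3 members with the largest called falls are shown, since ASH2L complexes act near transcription start sites. They are RefSeq sequences of mouse build GRCm38.p6, from 250 bases before to 50 bases after the annotated start, in the direction of transcription. Capitals mark matches on either strand to CACGTG (E-box), CCGGAAG (ETS), GGGCGG (GC box) or CCAAT, and no marked match overlaps another. Srsf4 lies at chr4:131873387-131873686 on the + strand and is the first of 3 starts listed, Prpf39 at chr12:65036084-65036383 (+) and Hnrnpa1 at chr15:103240147-103240446 (+).
Srsf4: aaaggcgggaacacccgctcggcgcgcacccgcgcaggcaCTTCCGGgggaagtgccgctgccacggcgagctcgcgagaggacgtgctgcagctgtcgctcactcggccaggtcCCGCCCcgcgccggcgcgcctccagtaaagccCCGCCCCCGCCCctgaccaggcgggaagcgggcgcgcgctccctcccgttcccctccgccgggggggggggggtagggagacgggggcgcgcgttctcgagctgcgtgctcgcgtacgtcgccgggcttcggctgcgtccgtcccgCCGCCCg
Prpf39: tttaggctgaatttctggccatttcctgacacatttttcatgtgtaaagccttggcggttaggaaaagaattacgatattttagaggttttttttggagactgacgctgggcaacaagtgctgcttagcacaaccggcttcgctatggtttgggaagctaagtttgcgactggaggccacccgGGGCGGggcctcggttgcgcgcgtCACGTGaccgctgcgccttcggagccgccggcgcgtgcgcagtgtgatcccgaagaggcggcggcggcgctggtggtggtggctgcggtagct
Hnrnpa1: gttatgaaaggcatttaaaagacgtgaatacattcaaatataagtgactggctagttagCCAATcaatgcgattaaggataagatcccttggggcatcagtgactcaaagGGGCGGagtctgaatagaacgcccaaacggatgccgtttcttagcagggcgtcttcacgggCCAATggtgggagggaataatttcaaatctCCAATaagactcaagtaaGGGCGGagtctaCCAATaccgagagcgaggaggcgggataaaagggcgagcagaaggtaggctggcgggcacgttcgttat

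The Prpf39 promoter held a CACGTG 43 bases before the start and a GC box 67 bases before it. The Hnrnpa1 promoter had 4 CCAAT boxes, the nearest 19 bases before the start, and 2 GC boxes, whereas the Srsf4 promoter had 4 GC boxes in reverse orientation and no CACGTG or CCAAT. RefSeq promoters were matched by symbol for 50 members (a motif counted if any listed start of the gene had it), among them the 16 called lower and 32 that were tested and not called. CACGTG was found for 5 of the 16 (31.2%) and for 3 of the 32 (9.38%), beside 12.4% of 6574 genes with a mean count of at least 100 and 7.15% of all 32851 promoters. The GC box was found for 15 of the 16 (93.8%) and 20 of the 32 (62.5%), beside 73.7% of those genes and 35.7% of all promoters. CCGGAAG was found for 37.5% of the lower and 31.2% of the uncalled members, beside 23.1% of those genes and 8.86% of promoters, and CCAAT for 50% and 56.2%, beside 43.1% and 37.4%. Of the E2F-type motifs, TTTCCCGC was found in 6 members (12%), 3 of them lower, beside 2.72% of those genes and 1.07% of promoters. TTTGGCGC was found in no member and TTTCGCGC in 1 (2%), beside 1.19% and 0.943% of those genes and 0.514% and 0.323% of promoters. These shares are descriptions of the letters in this window, and their differences were not tested.

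Transcripts of splicing factors were more often lower than higher after 24 h of dTAG. Of the 55 tested members, 16 were called lower (29.1%) and 0 higher, where 12.5% of all tested genes were called lower and 7.45% higher. At an unadjusted p under 0.05 in the same deposited DESeq2 test, 24 members were lower (43.6%) and 2 higher (3.64%), beside 17.9% and 12% of all tested genes and 24.6% and 14.2% of those with a mean count of at least 100. The members had a median mean count of 1052, against 93.6 for tested genes in general, and genes with higher counts were called more often. Among tested genes with a mean count of at least 100, 18.1% were lower and 9.49% higher, and among the 53 members at that level 15 (28.3%) were lower. The median log2 fold change of the 55 members was −0.23, against −0.02 over all tested genes and −0.05 over those with a mean count of at least 100. A value below 0 was found for 47 of the 55 members, for 8780 of all 16773 tested genes and for 4548 of the 8236 with a mean count of at least 100. Apart from Srsf4 (−2.07 ± 1.91, mean count 4.46), the called falls ranged from −0.42 to −1.21. Values above 0 were found for 8 members, none of them called. Whether the members shared a common shift was not tested.

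**Figure D1:**
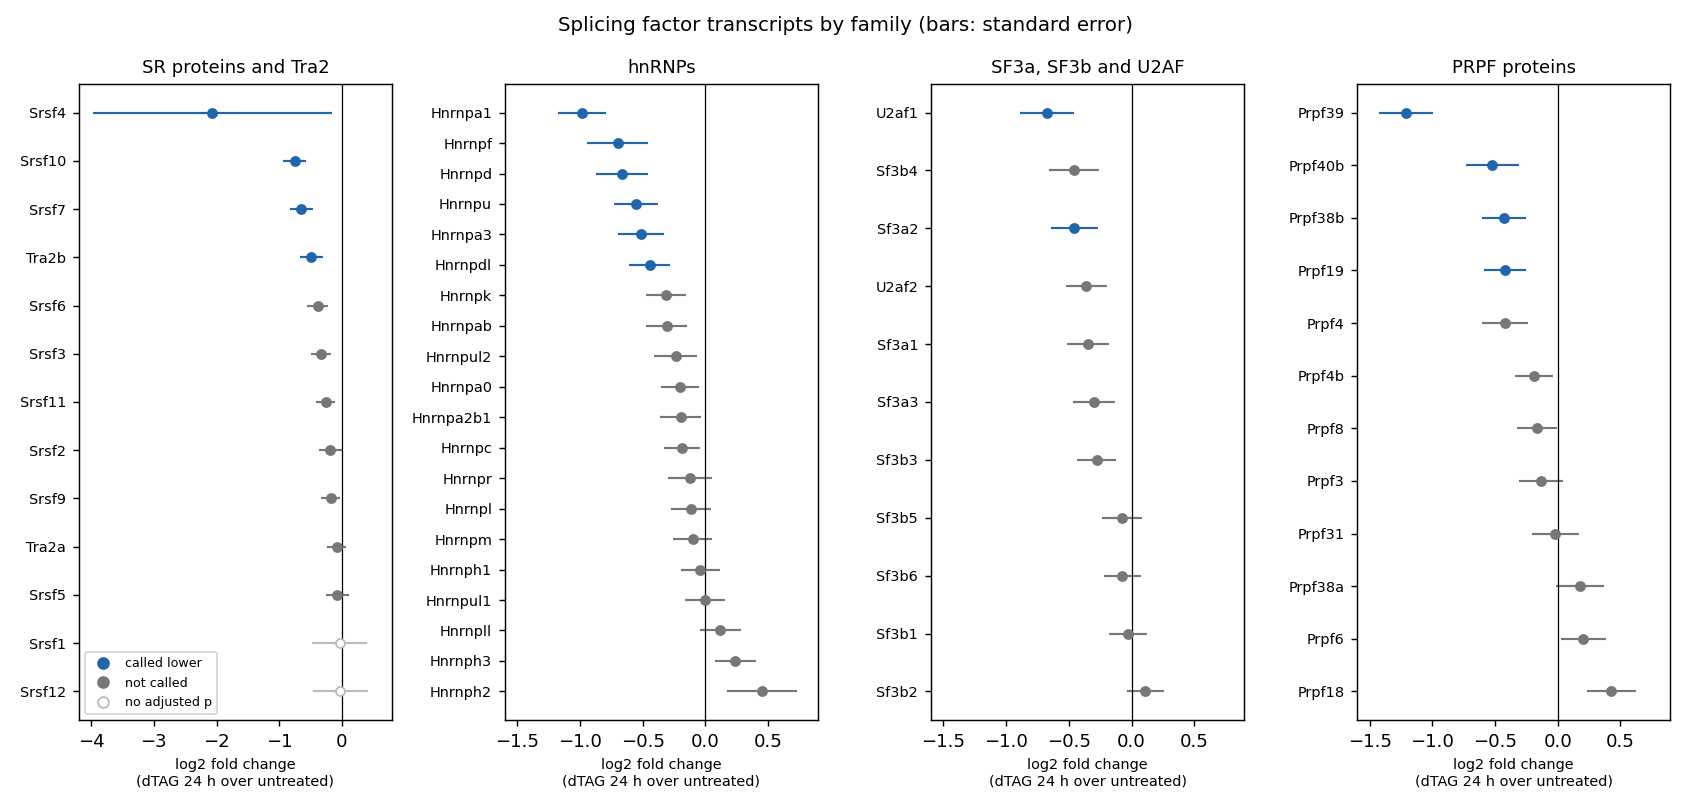
Deposited log2 fold change (dTAG 24 h over untreated) of 56 of the 57 members, by family, with bars of 1 SE. Filled blue points are the 16 called lower, grey points those not called and open points the 2 without an adjusted p. The SR panel has a wider axis because of the large SE of Srsf4.

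The extent of these calls depended on the zero point. When the zero was moved to the median of tested genes with a mean count of at least 100 (−0.05), 11 of the 55 tested members were called lower, all among the 16, and 1 was higher. Of all tested genes, 1876 (11.2%) were then lower and 1425 (8.5%) higher. The median of 15 housekeeping genes was −0.16, which is the value of Pgk1 (mean count 40.6, SE 0.30). With the zero moved to this median, 7 of the 55 were still lower and 3 were higher. All tested genes then split into 1536 lower (9.16%) and 2116 higher (12.6%), in place of 2093 and 1250. The median of the members was −0.07 at this zero point. Each shift moves every gene by the same amount, so the distance of the members from the other tested genes stayed as before. Shares among genes with a mean count of at least 100 were not computed at the shifted zero points. The members lower at each zero point were Prpf39, Hnrnpa1, Srsf10, Srsf7, Hnrnpd, U2af1 and Hnrnpf.

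**Figure D2:**
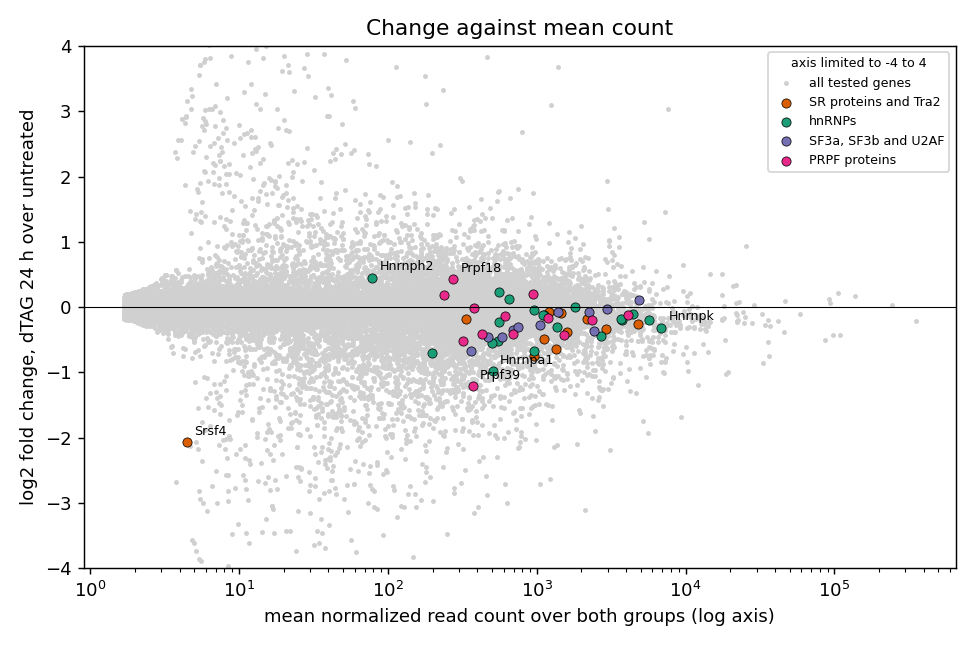
Log2 fold change against the mean normalized count (log axis) for all 16773 tested genes (grey) and the 55 tested members (coloured by family). Genes beyond the vertical limits of −4 and 4 are not drawn. Srsf4 stands apart from the other members at a mean count of 4.46, and the remaining called falls lie at mean counts of 199.6 or more.

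Among the SR proteins and Tra2 relatives, 4 of 11 tested genes (36.4%) were lower and all 11 had values below 0, with a median of −0.33. Of the 8236 tested genes with a mean count of at least 100, 18.1% were lower and 4548 had values below 0, with a median of −0.05. Srsf4, among the 4 called lower, is outside that class at a mean count of 4.46. Srsf10, a splicing regulator that represses splicing when dephosphorylated in mitosis or heat shock, had a mean count of 964.1 and fell by 0.75 ± 0.19 on the log2 scale, or 1.69-fold (adjusted p = 0.00018). Srsf7 (9G8), which also links splicing to mRNA export, had a mean count of 1356 and fell by 0.65 ± 0.18 (adjusted p = 0.0010). For Tra2b, the sequence-specific activator known for promoting exon inclusion in human SMN2 and for its own poison exon, the mean count was 1126 and the fall 0.49 ± 0.18 (adjusted p = 0.019).

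Srsf4 (SRp75), at chr4:131873617-131901706, had the lowest estimate of all members, −2.07 ± 1.91, at a mean count of only 4.46. Its adjusted p was 0.047, and the 95% interval of the shrunken estimate ran from −5.81 to 1.68, so the size of this change is hardly constrained. Its exons share 1532 bases with Gm12992 on the opposite strand, which was itself lower (−0.95 ± 0.44, mean count 38.4). Srsf1, the founding SR protein and a gene most cells use, lies at chr11:88047373-88053755 and was listed at a mean count of 0.358, and Srsf12 at 0.147. Their deposited log2 fold changes were −0.04 ± 0.44 and −0.02 ± 0.44, without an adjusted p. Why Srsf1 is near 0 in this table was not tested.

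The other SR members were not called. Srsf6 (−0.39 ± 0.16, adjusted p = 0.055) and Srsf3 (−0.33 ± 0.15, adjusted p = 0.088) had the next lowest values, with mean counts of 1590.0 and 2912. Srsf3 is the smallest SR protein and a proto-oncogene. Its 95% interval was −0.64 to −0.03. Srsf11 (−0.26 ± 0.15), Srsf2 (−0.19 ± 0.19), Srsf9 (−0.18 ± 0.16), Srsf5 (−0.08 ± 0.18) and Tra2a (−0.08 ± 0.15) followed. The paralogs Tra2a and Tra2b thus had values of −0.08 and −0.49 at mean counts of 1454 and 1126, a difference that was not tested. Srsf2 (SC35), often mutated in human myelodysplastic disease, shares 460 exonic bases with Mettl23 on the opposite strand, which was higher (0.56 ± 0.20, adjusted p = 0.016).

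Of the 20 hnRNPs, 6 (30%) were lower and 0 higher, beside 18.1% and 9.49% of tested genes with a mean count of at least 100. Their median was −0.20, against −0.05 over those genes. At an unadjusted p under 0.05 in the same DESeq2 test, 8 were lower and 1 higher, beside 24.6% and 14.2% of those genes. Hnrnpa1, which binds UAG-containing silencers and opposes SR proteins in splice site choice, showed the most pronounced fall of the family. Its mean count was 508.4, and its level fell by 0.98 ± 0.19, or 1.98-fold, with a 95% interval of −1.36 to −0.61 (adjusted p = 1.04e-06). The gene spans chr15:103240432-103246692 on the + strand (GENCODE M21). The paralog Hnrnpa3 was also lower, by 0.52 ± 0.18 (adjusted p = 0.014), whereas Hnrnpa2b1 (−0.20 ± 0.16) and Hnrnpa0 (−0.20 ± 0.15) were not called at mean counts of 3744 and 5645. Hnrnpa1 and Hnrnpa3 have 8 and 26 near-identical copies in the genome, nearly all pseudogenes, whose mean counts summed to 0.139 and 4.97.

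Hnrnpd (AUF1), which binds AU-rich elements and promotes mRNA decay, fell by 0.67 ± 0.21 (adjusted p = 0.0032), and its relative Hnrnpdl by 0.45 ± 0.16 (adjusted p = 0.021). A further relative, Hnrnpab, was not called (−0.31 ± 0.16). Hnrnpf, a binder of G-tracts, had a mean count of 199.6 and fell by 0.70 ± 0.25 (adjusted p = 0.0084). The other G-tract binders were not called, and their values lay near or above 0: Hnrnph1 at −0.04 ± 0.16, Hnrnph3 at 0.24 ± 0.16 and Hnrnph2 at 0.45 ± 0.28. Hnrnph2 is X-linked and had the lowest mean count of the family, 79.0. Moving the zero to the housekeeping median made Hnrnph2 and Hnrnph3 higher (adjusted p = 0.049 and 0.048), with Hnrnpf still lower (adjusted p = 0.045). The differences between these paralogs were not tested.

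Hnrnpu (SAF-A), which binds chromatin-associated RNA and scaffold DNA, fell by 0.55 ± 0.18 (adjusted p = 0.0060). Its relatives Hnrnpul1 (0.00 ± 0.16) and Hnrnpul2 (−0.23 ± 0.17) were not called. Hnrnpk, a poly-C binding protein, had the highest mean count of all members, 6853, and a value of −0.31 ± 0.16 (adjusted p = 0.12). Hnrnpc, which binds uridine tracts and guards against exonization of Alu elements in human cells, had −0.19 ± 0.14. Hnrnpr (−0.12 ± 0.17), the CA-repeat binder Hnrnpl (−0.12 ± 0.16), Hnrnpm (−0.10 ± 0.16) and Hnrnpll (0.12 ± 0.16), the last known for Cd45 splicing in lymphocytes, had the values nearest to 0 beside Hnrnph1 and Hnrnpul1. Rbmx encodes hnRNP G and has a symbol outside the rule. It was looked up after the other values were seen, and had 0.35 ± 0.22 (not called), whereas its retrogene Rbmxl1 was lower by 0.75 ± 0.20 (adjusted p = 0.00054). The counting could split reads of this similar pair, so both values are uncertain.

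In the group of SF3a, SF3b and U2AF, 2 of 11 genes (18.2%) were lower, close to the 18.1% of genes with a mean count of at least 100. Values below 0 were found for 10 of the 11, beside 4548 of those 8236 genes. U2af1, the small U2AF subunit that contacts the AG of the 3′ splice site, had a mean count of 360.5 and fell by 0.67 ± 0.22, with a 95% interval of −1.10 to −0.25 (adjusted p = 0.0047). It lies at chr17:31647081-31658892 on the − strand. The large subunit U2af2, which binds the polypyrimidine tract, lies at chr7:5062143-5079938 (+), had a mean count of 2439 and was not called, with −0.36 ± 0.17 and a 95% interval of −0.69 to −0.04 (adjusted p = 0.081). The difference between both subunits was not tested.

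Sf3a2, a U2 subunit, fell by 0.46 ± 0.19 (adjusted p = 0.037), while Sf3a1 (−0.35 ± 0.17) and Sf3a3 (−0.30 ± 0.17), which form the SF3a trimer with it, had similar values and were not called. Within SF3b the values were spread more widely. Sf3b4 was at −0.46 ± 0.20 (adjusted p = 0.054) and Sf3b3 at −0.28 ± 0.15, whereas Sf3b5 and Sf3b6, the latter a contact of the branch point adenosine, were both at −0.07, with SE of 0.16 and 0.15. Sf3b1, the branch point clamp that is recurrently mutated in human leukaemia, lies at chr1:54985169-55027481 (−) and had a mean count of 2960. Its value was −0.03 ± 0.15 with a 95% interval of −0.33 to 0.26 (adjusted p = 0.93), and that of Sf3b2 was 0.11 ± 0.15.

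Of the 13 PRPF genes, 4 (30.8%) were lower and 0 higher, beside 18.1% and 9.49% of tested genes with a mean count of at least 100. At an unadjusted p under 0.05 in the same DESeq2 test, 5 were lower and 1 higher, beside 24.6% and 14.2% of those genes. Prpf39, a U1-associated protein of 5′ splice site recognition, had the smallest adjusted p of all members. Its mean count was 373.8 and its level fell by 1.21 ± 0.21, or 2.32-fold, with a 95% interval of −1.63 to −0.79 (adjusted p = 5.2e-08). The gene lies at chr12:65036333-65063386 on the + strand. Its exons share 599 bases with Fkbp3 on the opposite strand, which was lower as well (mean count 600.5, −0.71 ± 0.19, adjusted p = 0.00061). The U1-linked Prpf40b fell by 0.52 ± 0.21 (adjusted p = 0.032). Prpf38b fell by 0.43 ± 0.17 (adjusted p = 0.039), and Prpf38a, its paralog and a component of the precatalytic spliceosome, had 0.18 ± 0.19. The difference between Prpf38a and Prpf38b was not tested. Prpf19, the ubiquitin ligase of the Prp19 complex, which is needed for activation of the spliceosome, fell by 0.42 ± 0.17 (adjusted p = 0.040).

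The PRPF members of the U4/U6.U5 tri-snRNP were not called. These were Prpf8, the scaffold of the catalytic centre (−0.17 ± 0.16), Prpf6 (0.20 ± 0.18), Prpf31 (−0.02 ± 0.19), Prpf3 (−0.13 ± 0.18) and Prpf4 (−0.42 ± 0.18, adjusted p = 0.061). Prpf4b, a kinase, had −0.19 ± 0.15. Prpf18, a factor of the second catalytic step, had 0.43 ± 0.20 (adjusted p = 0.070), the highest value among the PRPF genes, and was called higher after both shifts of the zero point (adjusted p = 0.042 and 0.0085).

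The other genes of splicing and RNA processing were examined in 9 lists by role. Together, 26 of 180 tested genes (14.4%) were lower and 1 was higher, a share of falls between that of all genes (12.5%) and that of genes with a mean count of at least 100 (18.1%). The share called lower was highest in the lists of snRNP assembly (31.2%) and of the snRNP core (27.3%), and between 6.67% and 14.6% in the other lists. Of 22 Sm and LSm core genes, 6 were lower, with Snrpa1 (−0.90 ± 0.21), Snrpd1 (−0.65 ± 0.16) and Lsm2 (−0.73 ± 0.20) at the smallest p. Of 16 genes of snRNP assembly and import, 5 were lower, led by Gemin6 of the SMN complex (−1.37 ± 0.24) and including Wdr77 (−0.63 ± 0.20) and Clns1a (−0.49 ± 0.16) of the methylosome, which methylates Sm proteins on arginine.

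Of 37 genes of spliceosome assembly and catalysis, 3 were lower, the helicase Dhx15 (−0.53 ± 0.16), Phf5a of SF3b (−0.51 ± 0.17) and Rbm17 (−0.40 ± 0.17), and 1 was higher, Crnkl1 (0.49 ± 0.19). Zrsr2, which recognizes the 3′ splice site of U12-type introns, was the call among 9 minor spliceosome genes (−0.53 ± 0.18). Among 8 tested SR protein kinases and importers, Srpk1, which phosphorylates SR proteins in the cytoplasm, was lower (−0.54 ± 0.18). Of 41 other regulators of alternative splicing, 6 were lower, with Khdrbs3 (−1.18 ± 0.20), Fubp1 (−0.50 ± 0.16) and Syncrip (−0.50 ± 0.17) at the smallest p. Of 19 genes of cleavage and polyadenylation, Cstf2 (−0.64 ± 0.20) and Cstf1 (−0.62 ± 0.20) were lower, and of 13 RNA polymerase II genes, Polr2m (−0.63 ± 0.15).

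Among 15 genes of the exon junction complex and nonsense-mediated decay 1 was lower, and its change exceeded in size that of every tested member. Magohb, a core exon junction protein, had a mean count of 312.9 and fell by 2.69 ± 0.24 (adjusted p = 1.7e-28). Its close paralog Magoh, named here because of that change, was not called (0.21 ± 0.17, mean count 850.3).

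**Figure D3:**
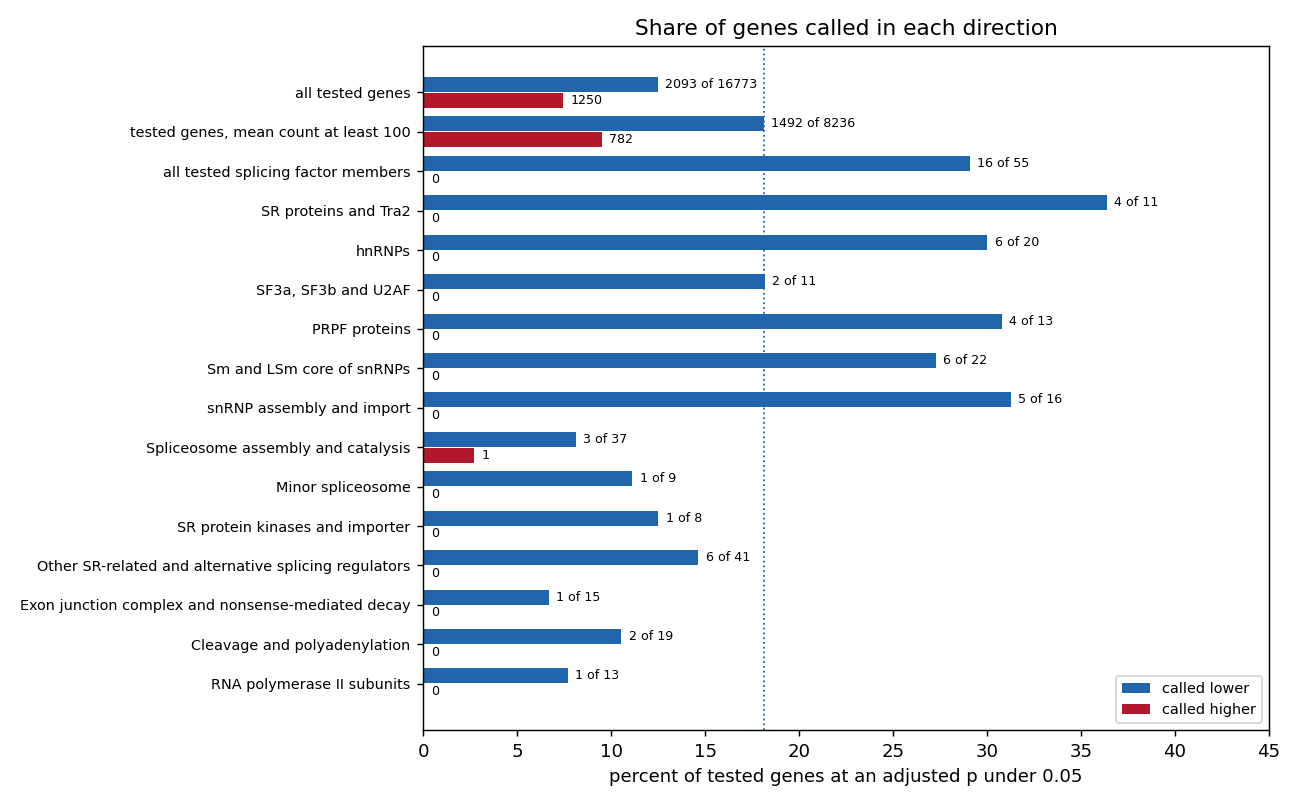
Percent of tested genes called lower (blue) and higher (red) among all tested genes, those with a mean count of at least 100, the members and their families, and the 9 other lists. Numbers beside the bars are counts, and the dotted line marks the 18.1% called lower among genes with a mean count of at least 100.

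Members with annotated poison or decay transcripts were common. In GENCODE M21, 30 of the 55 tested members (54.5%) have at least 1 transcript annotated as subject to nonsense-mediated decay, beside 31.0% of tested coding genes with a mean count of at least 100, and 41 (74.5%) have a retained-intron transcript, beside 65.1%. Of the 30, 11 (36.7%) were lower, and of the 25 without such a transcript 5 (20%), where the corresponding shares among coding genes with a mean count of at least 100 were 16.8% and 18.9%. These differences were not tested, and a count per gene cannot separate productive from decayed isoforms.

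Overlapping genes and copies could affect single values. The kit named in the labels is stranded and for total RNA, that in the study's methods captures 3′ ends of mRNA, so whether counting used strand is uncertain here. For 18 of the 57 members, exons overlap a gene on the opposite strand, and 17 of these were tested. Of the 17, 6 were called lower: Prpf39, Srsf4, Hnrnpd, Sf3a2, Hnrnpu and Hnrnpf. In the case of Hnrnpd, the partner Gm17092 shares 385 bases and was lower as well (−1.24 ± 0.36), whereas the partner of Sf3a2, Plekhj1, was not called (0.11 ± 0.18) and that of Hnrnpu, Cox20, was listed at 0. The other 10 lower members are among the 38 tested members without such overlap. Of all tested genes 12.5% were lower, and of those with a mean count of at least 100, 18.1%. The shares among all genes with and without such overlap were not computed. Near-identical copies (at least 95% identity over 300 bases) exist for 12 members, but only for Srsf3 did their mean counts sum to over 100, through Srsf3-ps (154.3, −0.34 ± 0.25). The part of overlaps and copies in these values was not tested.

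**Figure D4:**
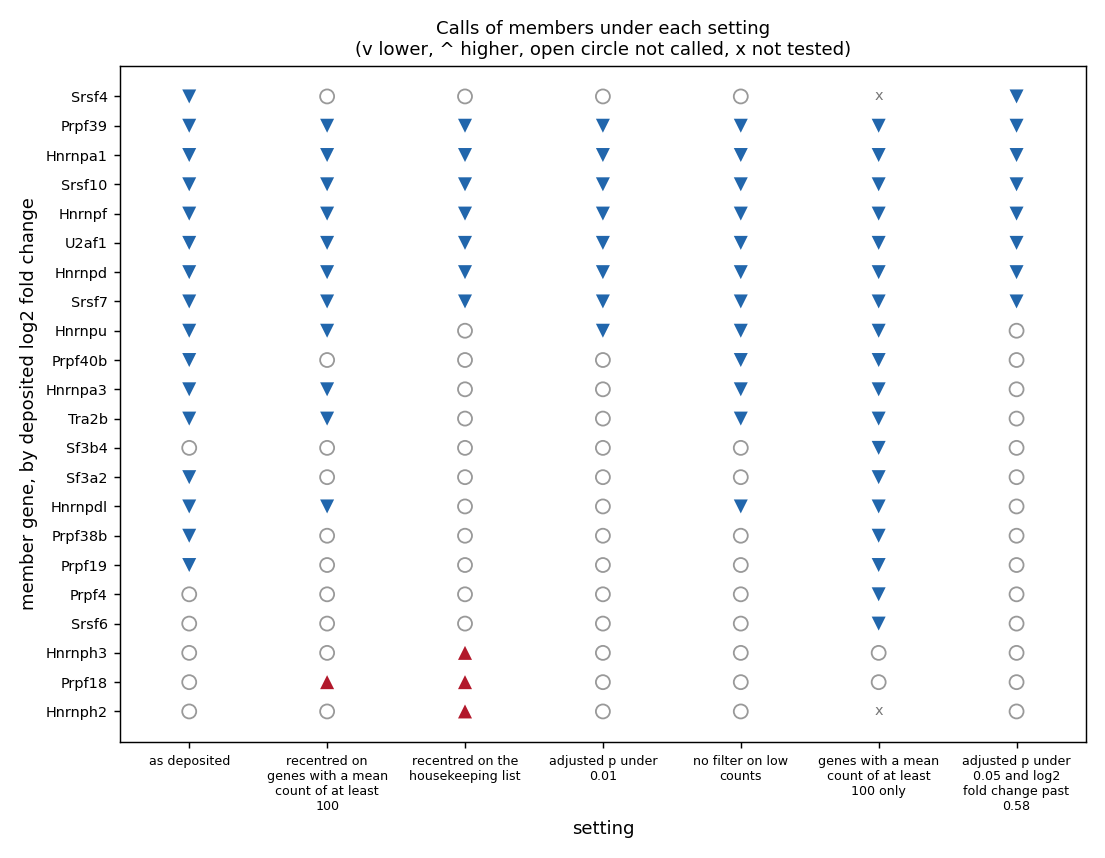
Calls of the members that were called in at least 1 setting (rows, by deposited log2 fold change) under each of 7 settings (columns). Triangles pointing down are lower, pointing up higher, open circles not called and crosses not tested; 7 members are lower in every column.

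Fibroblast markers were at high mean counts for Col1a2 (109792), Col1a1 (86116), Vim and Fn1, whereas Dcn (5.68) and Lum (1.73) were low for fibroblasts. Pdgfra had a mean count of 66.5. Of these 10 markers 3 were lower (30%), Col1a1, Col1a2 and Thy1, and 2 higher (20%), Col3a1 and Fn1. Among tested genes with a mean count of at least 100, 18.1% were lower and 9.49% higher. Markers of other cell types reached mean counts of at most 25.4 (haematopoietic), 7.32 (epithelial) and 17.5 (endothelial), with Adgre1, Epcam, Krt8, Krt18 and Cdh5 at 0, and only Tek among them was called (1.93 ± 0.65). Mouse Ash2l had −0.12 ± 0.20 at a mean count of 150.1, which does not measure loss of a human fusion protein that is removed after translation. Among 15 housekeeping genes 14 had values below 0 and 1, Ppia, was called lower (−0.81 ± 0.21).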

How the data were processed

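RNA-seq of untreated and dTAG-treated iMEF was analysed from the deposited table of the 24 h comparison. By the methods, the authors trimmed reads (Trim Galore), aligned them to mm10 (STAR), counted them per gene (featureCounts), scaled them to ERCC spike-ins and tested them with DESeq2. Versions are not given in the sources used here. The deposited columns are the mean normalized count (a signal pooled over both groups), the shrunken log2 fold change, its SE, the p-value and the adjusted p-value. These are the authors' own test results and were used because the table holds no values per library. The labels list 3 libraries per group, while a legend of the study states another number of replicates. The kit also differs between labels and methods. The titles and the study give 24 h, whereas the treatment label names other times. The other 2 of the 3 tables were not used.

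Members and lists were chosen with earlier results of these data known. Named were the members except 1 that is not reported here by name and stays in the counts, with full statistics for the 3 largest called falls (no rise was called) and for U2af1, U2af2, Sf3b1 and Srsf1, and up to 3 called genes of smallest p per direction in each other list. Intervals are ±1.96 SE. For other zero points, the signed z of the deposited p was reduced by the new zero over SE, and p was adjusted again (Python 3.11.15, pandas 2.3.3, scipy 1.17.1). The step was checked on simulated data in which p came from the estimate over its SE. The deposited log2 fold changes and SE are shrunken and need not match the deposited p, which the check did not cover. Calls at the shifted zero points are therefore approximate. Adjusting the deposited p-values over the tested genes gave back the deposited adjusted values. Alternatives were 2 zero points, adjusted p under 0.01, no filter, genes with a mean count of at least 100 only, and log2 changes past 0.58. Annotation was GENCODE M21 (55141 of 55401 IDs found, 54349 with the same version), copies were searched with BLAST 2.17.0, and RefSeq promoters were matched by symbol.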

Additional observations from a re-analysis of the deposited data

How the results depend on the processing

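No paired analysis was possible because the table holds no values per library, and leaving out each replicate was not run for the same reason. Of the 55 tested members, 16 were called lower. This number became 11 with the zero at the median of genes with a mean count of at least 100 (beside 11.2% of all tested genes). It was 7 with the zero at the housekeeping median (9.16%) and 8 at an adjusted p under 0.01 (9.11%). Without a filter on low counts it was 12 (11.4%), and with changes past 0.58 it was 8 (10.1%). Over genes with a mean count of at least 100 only, it was 18 of 53 members, beside 19.5% of such genes. Apart from the 18 of 53, the member numbers are counts out of 55. The percents beside those counts are shares of all tested genes, not of members. All tested genes had a lower median count than the members. Shares among genes with a mean count of at least 100 were not computed for those settings. The 18 were 15 of the 16 and 3 new calls, Prpf4, Sf3b4 and Srsf6, with Srsf4 not tested. The 0 members called higher became 1 and 3 at the shifted zero points and stayed 0 elsewhere. The median of the members moved from −0.23 to −0.19 and −0.07. With the first shift the adjusted p became 0.050 for Srsf4, 0.054 for Prpf40b, 0.066 for Sf3a2, 0.071 for Prpf38b and 0.073 for Prpf19, and with the second also 0.060 for Hnrnpu, 0.10 for Hnrnpa3, 0.13 for Tra2b and 0.16 for Hnrnpdl. The 26 other splicing and processing genes called lower became 20 and 11 at the shifted zero points, 18 at an adjusted p under 0.01, 21 without a filter, 27 over genes with a mean count of at least 100 only and 12 past 0.58. The 1 called higher became 2 and 9 at the shifted zero points, 0 at an adjusted p under 0.01 or past 0.58, and 2 over genes with a mean count of at least 100 only. No member changed its direction while called, and uncalled values changed sign for 3 and 12 members at the shifted zero points. The shifts themselves test how calls depend on the scaling; which zero is right was not tested. Low counts limit Srsf4, Srsf1, Srsf12 and Hnrnph2.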
